A study of Mus musculus with 24 samples.

Results

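The genes described here encode splicing factors and RNA-binding proteins: the hnRNP, SRSF, SF3A, SF3B, RBM, CELF, MBNL, RBFOX, ELAVL, NOVA, PTBP, QKI, U2AF, PCBP, KHDRBS, TRA2, ESRP, RBPMS, IGF2BP and Pumilio families. They were chosen by symbol alone, and 106 of the 7493 genes in the expression table carry such a symbol. Bulk RNA sequencing covered 8 tissues (brain, heart and aorta, lung and liver, kidney and stomach, and spleen), with 3 libraries per tissue and 24 in all. Every animal carried a bacterial artificial chromosome (BAC) with SENCR, a human long non-coding RNA gene known from vascular cells. The labels name no animal without it, no strain, sex, age or treatment, and do not say which libraries came from 1 animal. The values therefore compare tissues of transgenic mice and hold no comparison with non-transgenic mice. P-values measure the spread between these libraries.

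RNA-binding proteins of these families decide which exons are joined in a pre-mRNA, where its 3′ end is cut, and how long the mRNA lasts. SR proteins mostly promote exon inclusion and many hnRNP proteins oppose it, while SF3A, SF3B and U2AF subunits belong to the machinery that recognises the branch point and the 3′ splice site. ELAVL, NOVA, RBFOX, CELF and PTBP proteins are known for the exon programmes of neurons, MBNL, RBPMS, QKI and RBM24 proteins for those of muscle, and ESRP proteins for those of epithelia.

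Reads of these mouse tissues had been counted on a human genome build, GRCh38.p13, so a gene's level depends on how much of its mouse sequence matches the human gene. Levels are in FPKM (fragments scaled to gene length and to the fragments assigned in the library). For this reason a gene's tissues are compared with each other; levels of different genes are ranked only to pick out the 5 with the highest mean FPKM, and that rank carries the same limit. Assigned reads, recovered from the FPKM steps, ran from 193900 to 642307 per library. Each tissue held reads of its own marker genes; liver libraries were at 0 for APOA1 and TTR and spleen libraries for CD3E, and the lung and stomach lists had only 2 markers in the table. Lung libraries also held cardiomyocyte markers (925.5 to 1240 FPKM summed over 7 genes, against 4.829e+04 to 5.859e+04 in heart), and aorta libraries were uneven in hepatocyte markers (21.6, 0 and 41.7 FPKM summed, against 2149 to 2472 in liver) and in neuron markers. Between replicates of a tissue, Pearson's r over genes was 0.949 to 0.973. In bulk tissue, fewer cells of a type and less RNA per cell cannot be told apart.

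Of the 106 genes, 88 reached at least 1 FPKM in at least 3 libraries and entered the test, as did 4260 genes of the whole table; the other 18 are listed at the end. On log2(FPKM + 1), limma set every tissue against the average of the remaining 7. A call needed a difference of 1 or more and a Benjamini-Hochberg adjusted p below 0.05. For limma's F test across the 8 tissues, a range of tissue means of 1 or more was needed as well. By these limits 77 of the 88 genes (87.5%) differed between tissues, against 76.1% of all tested genes.

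The 106 genes took the largest share of assigned reads in spleen, 13.1% ± 0.817 (SD, n = 3), and the smallest in heart, 6.60% ± 0.297. Lung had 11.5% ± 0.460 and aorta 11.4% ± 0.275, and the other 4 tissue means lay between 8.33% and 9.11%. No library of another tissue reached the lowest spleen value (12.6%) or fell to the highest heart value (6.94%).

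In spleen 27 of 88 genes were called higher (30.7%, against 11.5% of all genes) and 13 lower (14.8%, against 13.5%). In heart 6 were called higher (6.82%, close to the 6.41% of all genes) and 21 lower (23.9%, against 17.4%). The median difference of the 88 genes was 0.63 in spleen, where that of all genes was -0.14, and -0.67 in heart, where that of all genes was -0.44. The spleen mean was the highest of the 8 for 42 of the 88 genes (47.7%, against 16.7% of all genes).

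These splits depended on scaling. Shares of all genes called were counted only in the main test, so splits under other settings, here and below, stand without them. With TPM scaling 17 genes were higher and 14 lower in spleen, and with median-ratio scaling 17 and 13. The spleen mean was the highest of the 8 for 37 genes with TPM scaling (42%, against 13.3% of all genes). With median-ratio scaling it was the highest for 35 (39.8%, against 14.3%). In heart the split was 8 higher and 16 lower with TPM scaling, and 8 and 9 with median-ratio scaling, which moved the median heart difference of all genes by 0.34. The heart mean alone was the lowest of the 8 for 32 genes as deposited (36.4%, against 18.6% of all genes), for 30 with TPM scaling (34.1%, against 16.9%) and for 7 with median-ratio scaling (7.95%, against 9.6%); genes where tissues tied at 0 were not counted.

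In brain 16 genes were called higher and 8 lower (18.2% higher, against 23.9% of all genes, and 9.09% lower, against 10.5%). The median brain difference of the 88 genes was -0.27, against -0.02 for all genes. limma voom on recovered reads called 16 higher and 16 lower, and with no minimum difference the split was 19 higher and 29 lower. Liver had no gene called higher (9.81% of all genes were) and 19 called lower (21.6%, against 17.3%). Of the 88 genes, 57 had an unadjusted limma p under 0.05 in liver in either direction. In the other tissues this count ran from 38 (stomach) to 74 (spleen), so it was not particular to liver. In liver limma voom on recovered reads called 1 higher and 16 lower. Aorta had 10 higher and 4 lower (all genes 9.58% and 8.19%), lung 10 and 2 (11.9% and 3.64%), kidney 3 and 9 (9.77% and 8.12%), and stomach 5 and 5 (7.65% and 5.87%). TPM scaling gave 8 higher and 6 lower in aorta and 5 and 8 in kidney, and median-ratio scaling gave 7 and 3 in lung. Of the lower calls, 11 in liver, 8 in kidney and 9 in spleen were ELAVL, NOVA, RBFOX, CELF, PTBP and KHDRBS genes. The mean these tissues were set against includes brain, where 14 genes of that group were called higher. Called lower than each of the other 7 in pairwise contrasts were HNRNPF and RBPMS in brain (all genes 1.17%), RBM14 and SRSF9 in heart (0.892%), CELF2 in kidney (0.117%), NOVA1 and TRA2A in liver (1.5%), RBFOX2 in spleen (0.798%), and PCBP4 and QKI in stomach (0.0939%).

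**Figure D1:**
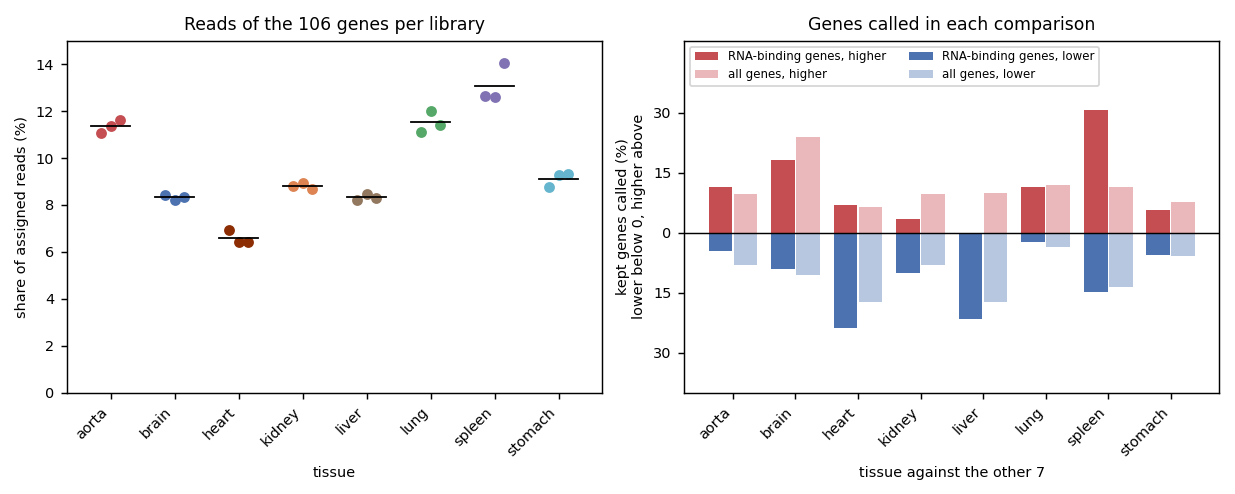
Left, the share of assigned reads (percent) that fell on the 106 splicing and RNA-binding protein genes in each library (points) with the tissue mean (line); spleen was highest at a mean of 13.1% and heart lowest at 6.60%. Right, the percent of the 88 tested RNA-binding genes (dark bars) and of all 4260 tested genes (pale bars) called higher (above 0) or lower (below 0) in each tissue than the mean of the other 7; the dark bar exceeds the pale one most in spleen, 30.7% against 11.5%.

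**Figure D2:**
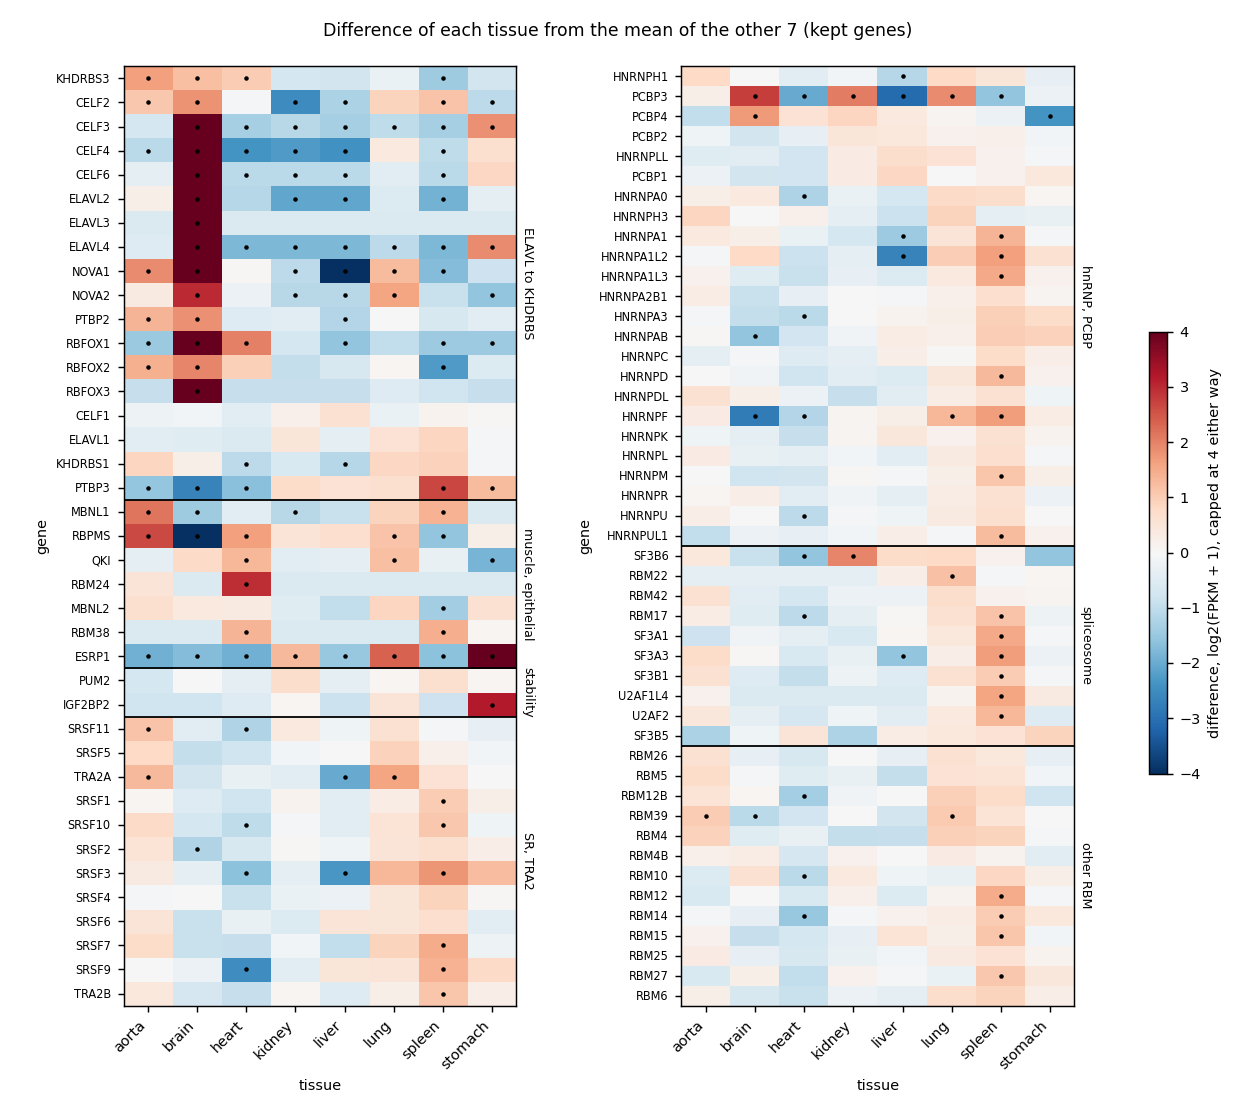
Difference of each tissue from the mean of the other 7 on log2(FPKM + 1) for the tested genes, grouped by role from top to bottom; red is higher, blue lower, the scale is capped at 4 either way and a dot marks a call. RBM5-AS1, an antisense transcript with no call, and a gene not reported here are left out; the dark red brain column of the ELAVL, NOVA, RBFOX and CELF genes and the red spleen column of the SR, hnRNP and spliceosome genes stand out.

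The neuronal families gave the widest differences. Of 18 tested ELAVL, NOVA, RBFOX, CELF, PTBP and KHDRBS genes (20 in the table), 14 were called higher in brain (23.9% of all genes were), 1 lower (PTBP3) and 3 not called; the median difference was 3.54 against -0.02 for all genes. ELAVL3 and RBFOX3, counted among the 14, passed the filter through their 3 brain libraries alone and so had to differ; they are described without a test. For 10 of them (CELF3, CELF4, CELF6, ELAVL2, ELAVL3, ELAVL4, NOVA1, NOVA2, RBFOX1 and RBFOX3) brain was called higher than each of the other 7 tissues in pairwise contrasts, as it was for 13.2% of all genes.

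ELAVL proteins (Hu proteins) bind AU-rich elements and hold mRNAs stable; ELAVL1 is the form of most cells and ELAVL2, ELAVL3 and ELAVL4 are the neuronal forms. The 4 mouse genes share parts of their coding sequence, broken by scattered bases that differ. Over the most alike gap-free stretch of 60 coding bases, taken from the longest open reading frame of each GENCODE M21 transcript, 46 bases are shared by all 4 and the 14 that are not are in capitals:
Elavl1 (bases 841 to 900): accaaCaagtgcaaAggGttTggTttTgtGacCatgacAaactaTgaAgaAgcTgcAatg
Elavl2 (bases 1027 to 1086): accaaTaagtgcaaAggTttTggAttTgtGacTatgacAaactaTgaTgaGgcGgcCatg
Elavl3 (bases 961 to 1020): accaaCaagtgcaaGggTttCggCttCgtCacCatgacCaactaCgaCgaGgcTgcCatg
Elavl4 (bases 1015 to 1074): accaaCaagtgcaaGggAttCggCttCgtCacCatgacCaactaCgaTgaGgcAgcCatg
Whole coding sequences of Elavl2 and Elavl4 were identical at 77.8% of aligned bases, with a longest shared run of 23 bases, and Elavl3 and Elavl4 at 78.1% with a run of 29. How reads of these paralogs were assigned on the human build was not tested.

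ELAVL2 stood at 433, 430 and 415 FPKM in the 3 brain libraries, and at 0 to 2.91 FPKM in the other libraries apart from aorta replicate 1, which had 21.6 FPKM. Brain was higher than the mean of the other tissues by 7.89 ± 0.48 (SE) on the log2 scale (limma, adjusted p = 1.08e-11). The aorta libraries were uneven, with 21.6, 0.730 and 0.758 FPKM. Neuron marker genes (6 genes, RBFOX3 not counted) were uneven in those libraries too, summing to 45.04, 5.81 and 0.410 FPKM in aorta replicates 1, 2 and 3, against 6045 to 7269 FPKM in brain; their part in the aorta values was not tested.

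ELAVL4 was at 191, 183 and 193 FPKM in brain (difference 6.86 ± 0.36, limma adjusted p = 8.6e-13). Stomach came next with 14.2, 5.87 and 6.77 FPKM, above the other tissues by 1.88 ± 0.36 (adjusted p = 0.000492). No library of heart, kidney, liver or spleen held a read of it. Stomach was also the next highest tissue in neuron markers, at 22.4 to 35.6 FPKM summed, and the part of these markers in the stomach value was not tested. With a pseudocount of 5 the stomach difference was 0.59 and was not called.

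ELAVL3 had reads in brain only, at 14.0, 16.5 and 18.9 FPKM. The other 21 libraries were at 0, where 3 reads would have been worth between 1.00 and 3.15 FPKM, so brain was at least 5.23-fold higher with the floor of 3 reads taken per library. Without any 1 brain library, ELAVL3 and RBFOX3 no longer passed the filter and had no test.

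ELAVL1 was low everywhere, from 0 to 6.32 FPKM, and its differences between tissues did not pass the F test (adjusted p = 0.150). It had 176 reads in all 24 libraries together.

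NOVA proteins were first known as neuronal antigens and regulate synaptic exons. NOVA1 had 478, 414 and 441 FPKM in brain (difference 5.04 ± 0.25, limma adjusted p = 3.32e-13), but it was not confined to brain. Aorta followed with 65.5, 77.0 and 53.5 FPKM (1.88 ± 0.25, adjusted p = 6.67e-06), then lung with 46.3, 40.3 and 46.5 FPKM (1.27 ± 0.25, adjusted p = 0.000569). Aorta and lung did not differ by the pairwise call. Liver was at 0, 1.06 and 0 FPKM and was called lower than each other tissue, with a difference of -4.62 ± 0.25.

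In aorta replicates 1, 2 and 3, beside NOVA1 at 65.5, 77.0 and 53.5 FPKM, neuron markers had 54, 7 and 1 reads; their part in the NOVA1 values was not tested. NOVA2, its paralog, was at 14.3, 14.3 and 15.9 FPKM in brain (2.97 ± 0.25, limma adjusted p = 1.99e-09). Lung was next with 5.60, 7.47 and 4.66 FPKM (1.58 ± 0.25, adjusted p = 6.49e-05), and the stomach libraries were at 0. Lung libraries had neuron markers at 5.01 to 20.6 FPKM summed.

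RBFOX proteins bind a GCAUG element beside regulated exons; RBFOX3 is the NeuN antigen of mature neurons. RBFOX3 was at 62.0, 66.0 and 71.1 FPKM in brain and at 0 in 17 of the other 21 libraries, with 5 reads in those 21 together. RBFOX1, the form of neurons and striated muscle, had 77.0, 87.6 and 74.1 FPKM in brain (5.65 ± 0.20, adjusted p = 1.49e-15). Heart was its next tissue, at 8.004, 6.41 and 9.44 FPKM, with no overlap with any library of the remaining 6 tissues.

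The heart difference of RBFOX1 was 2.02 ± 0.20 (limma adjusted p = 9.67e-08), and neuron markers in heart summed to 0 to 2.83 FPKM. With a pseudocount of 5 that difference was 0.73 and was not called. RBFOX2, the broader form, had 33.5, 37.5 and 37.3 FPKM in brain, 24.2, 24.3 and 30.8 in aorta and 21.1, 16.6 and 20.8 in heart. It was lowest in spleen, at 2.19, 2.12 and 1.48 FPKM, which was called lower than each other tissue (-2.26 ± 0.27, adjusted p = 1.19e-06).

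CELF proteins bind GU-rich elements, CELF1 and CELF2 in many tissues and CELF3 to CELF6 mainly in the nervous system. CELF4 showed the largest difference among the 88 genes, with 749, 669 and 818 FPKM in brain and at most 11.5 FPKM in any other library (8.15 ± 0.40, limma adjusted p = 2.56e-13). CELF3 had 42.7, 49.8 and 46.7 FPKM in brain (5.02 ± 0.23, adjusted p = 6.66e-14) and 3.51, 6.18 and 8.88 FPKM in stomach, which was above the other tissues by 1.83 ± 0.23 (adjusted p = 3.83e-06). Stomach was thus the next tissue for CELF3 as for ELAVL4, and with a pseudocount of 5 its CELF3 difference was 0.62 and not called.

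CELF6 was at 28.9, 14.8 and 30.6 FPKM in brain (4.21 ± 0.34, limma adjusted p = 9.76e-10). Stomach came next for it, at 1.91, 1.68 and 3.11 FPKM from 2, 2 and 3 reads. Its aorta reads were in replicate 1 alone, at 2.69 FPKM. CELF2 was spread more widely, with 137, 178 and 174 FPKM in brain (1.81 ± 0.16, adjusted p = 3.42e-09) and its lowest values in kidney, 9.79, 11.7 and 11.02 FPKM, below each other tissue (-2.52 ± 0.16). CELF1 was at 97.1 to 239 FPKM over all 24 libraries. Its range of tissue means, 0.90, was under the minimum of 1, though its limma F test adjusted p was 0.000645.

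KHDRBS3 (SLM2), a regulator of neurexin exons, was higher in aorta (31.4, 37.2 and 28.2 FPKM; 1.63 ± 0.23, limma adjusted p = 1.52e-05) and in brain (23.8, 27.9 and 22.4 FPKM; 1.21 ± 0.23, adjusted p = 0.000165). KHDRBS1 (SAM68) was at 56.4 to 296 FPKM with no tissue called higher. It was called lower in liver by -1.15 ± 0.12 and in heart by -1.04 ± 0.12. KHDRBS3 was also called lower in spleen (-1.42 ± 0.23) and higher in heart (1.01 ± 0.23), the heart call being lost when any 1 of 11 libraries was left out (as low as 0.94). The liver call of KHDRBS1 was lost without liver replicate 1 (-0.99) and its heart call without heart replicate 2 (-0.93).

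Several lower calls of the neuronal genes in tissues at or near 0 rested on 1 library elsewhere. CELF6 was called lower in heart, kidney, liver and spleen (-1.07 each), and without aorta replicate 1 (-0.98) or lung replicate 2 (-0.99) none of the 4 held; 3 of them (heart, kidney and spleen) were also lost when any library of the tissue itself was left out. CELF4 in aorta (-1.09) lost its call without aorta replicate 2 (-0.78), aorta replicate 3 (-0.94) or brain replicate 3 (-1.08), and CELF4 in spleen (-1.03) without spleen replicate 3 (-0.45) and 9 other libraries.

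**Figure D3:**
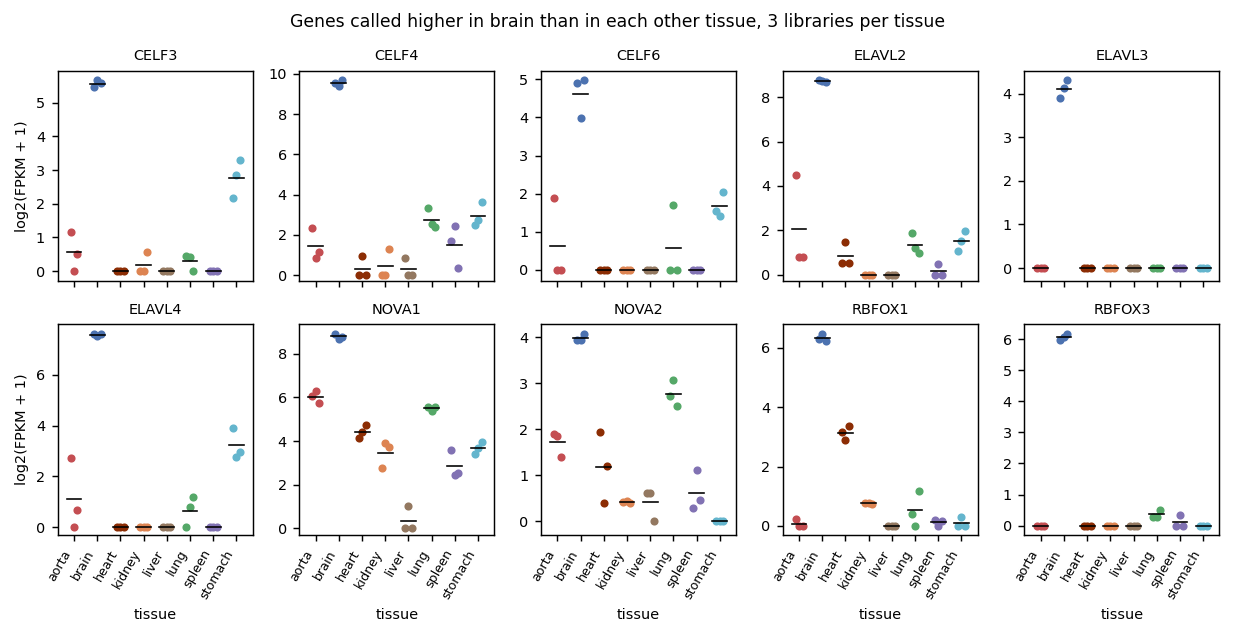
log2(FPKM + 1) of the 10 genes called higher in brain than in each other tissue, in the 3 libraries of each tissue (points) with their mean (line); vertical scales differ between panels. Every brain library lies above the other 21. The next tissue differs by gene: stomach for CELF3, CELF4, CELF6 and ELAVL4, aorta for NOVA1, lung for NOVA2 and heart for RBFOX1.

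PTBP1 and PTBP2 bind polypyrimidine tracts; PTBP1 holds neuronal exons back in most cells and PTBP2 takes its place in developing neurons. PTBP2 was at 156, 151 and 144 FPKM in brain (1.81 ± 0.18, limma adjusted p = 3.03e-08) and at 115, 114 and 114 FPKM in aorta (1.36 ± 0.18, adjusted p = 7.26e-06). PTBP1 had 5 reads in the 24 libraries together, too few to be compared, and this number cannot be read as absence of the mouse mRNA because reads were counted on the human build. PTBP3 (ROD1), known from blood cells, ran the other way, at 46.2, 32.2 and 58.1 FPKM in spleen and 0.835, 1.51 and 0.204 in brain.

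PTBP3 was above the other tissues in spleen by 2.67 ± 0.30 (limma adjusted p = 5.97e-07) and below them in brain by -2.67 ± 0.30 (adjusted p = 1.73e-07). Spleen was called higher than each other tissue for PTBP3 and RBM12, as for 1.5% of all genes. Blood cell markers summed to 137.5 to 282 FPKM in spleen, 96.5 to 136.6 in lung and 3.02 to 50.1 elsewhere, and their part in the PTBP3 value was not tested.

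The balance between 2 paralogs was followed as the log2 ratio of (FPKM + 1) within each library. Such a ratio does not depend on library scaling beyond the pseudocount, and 8 pairs were tested, brain against the other 21 libraries, with an exact two-sided permutation test whose smallest possible p is 0.000494. The 21 libraries come from 7 tissues and are not 1 group. The test regroups all 24 libraries without regard to tissue, so its p does not hold for tissues as units. ELAVL4 over ELAVL1 was 6.005 to 6.345 in brain and -2.74 to 2.49 elsewhere, a difference of 7.35. CELF4 over CELF1 differed by 8.26, RBFOX3 over RBFOX2 by 4.07, RBFOX1 over RBFOX2 by 3.71 and ELAVL3 over ELAVL1 by 4.61. ELAVL1 had 176 reads in the 24 libraries together, so the ratios over it largely follow ELAVL4 and ELAVL3. The level of a ratio carries the limit of the human build, and only its difference between libraries is read.

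In each of these 5 pairs all 3 brain libraries lay above the other 21. RBFOX3 and ELAVL3 passed the filter through brain alone and had to differ, so no p is read for their ratios, though both count in the adjustment. For the ELAVL4, CELF4 and RBFOX1 ratios no regrouping of 3 against 21 libraries gave as large an absolute difference. Each of these had the smallest p the exact permutation allows and an adjusted p of 0.000659. PTBP2 over PTBP1 also had that exact permutation p, with a difference of 1.97, but PTBP1 had almost no reads, so that ratio follows PTBP2. MBNL2 over MBNL1 was -0.21 to 0.14 in brain and -4.42 to -0.51 elsewhere, a difference of 1.81 (exact permutation p = 0.0163, adjusted 0.0186); the adjusted p was 0.0542 without brain replicate 1 (1.83) and 0.0587 without brain replicate 3 (1.71). MBNL1 was itself called lower in brain by limma (-1.41), and MBNL2 was not called there. KHDRBS3 over KHDRBS1 overlapped between brain (-2.86 to -2.48) and the rest (-6.04 to -1.41), with a difference of 0.99 (exact permutation p = 0.186). The pairs with a gene near 0 moved by over 1.5 times with the pseudocount: over all settings ELAVL3 over ELAVL1 ran from 2.35 to 7.90 and RBFOX3 over RBFOX2 from 2.31 to 6.91.

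**Figure D4:**
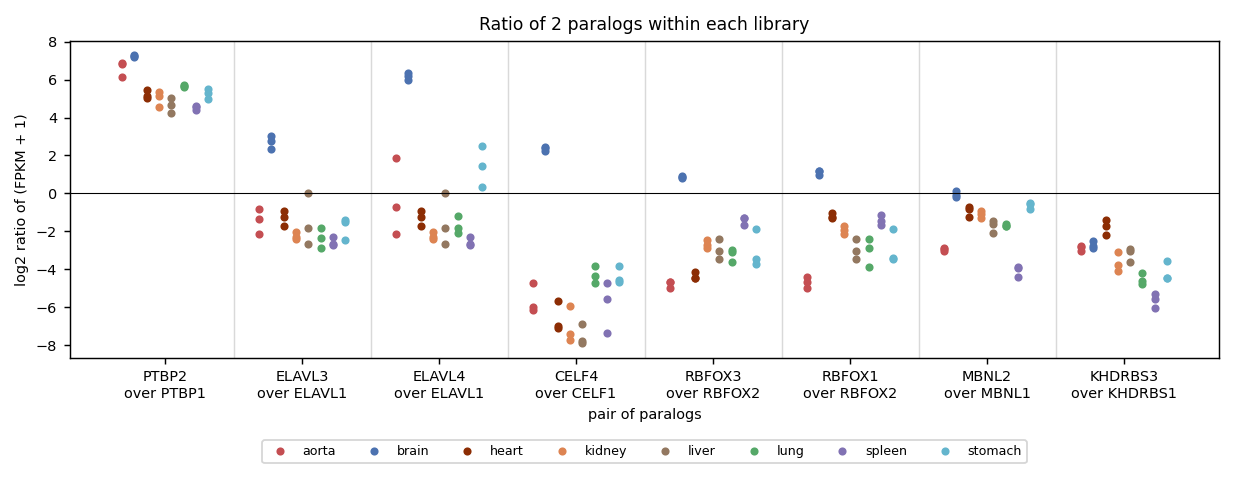
log2 ratio of (FPKM + 1) of a pair of paralogs in each of the 24 libraries, coloured by tissue, for the 8 pairs tested. The brain points lie above all others in 7 of 8 pairs and overlap them for KHDRBS3 over KHDRBS1; the stomach and 1 aorta library come next for ELAVL4 over ELAVL1.

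Promoter windows (250 bases before to 50 after the start site, RefSeq, GRCm38.p6) were read for shared features. The brain-elevated genes are those called higher in brain than in each other tissue, so their common brain peak is the rule that picked them. The table held a window for 80 of the 106 genes, 127 windows in all, against 32851 windows of 27025 genes. Windows of the RNA-binding genes were rich in CpG, with a median observed over expected CpG ratio of 0.846 against 0.384 for all genes, and 77.2% of them reached 0.6 against 35.8%. The 25 windows of 9 brain-elevated genes were closer to all genes, with a median of 0.403 and 40.0% at 0.6 or above. The 5 windows of 4 genes with the smallest range between tissues all reached 0.6.

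A low and a high ratio are shown by 1 brain-elevated gene and 1 of the genes with the smallest range. Both windows are printed 5′ to 3′ on the gene's strand with CpG in capitals. The RBFOX3 window (minus strand, chr11:118760992-118761291) has 4 CpG and a ratio of 0.20, and the HNRNPL window (plus strand, chr7:28810640-28810939) has 21 CpG and a ratio of 0.79:
Rbfox3: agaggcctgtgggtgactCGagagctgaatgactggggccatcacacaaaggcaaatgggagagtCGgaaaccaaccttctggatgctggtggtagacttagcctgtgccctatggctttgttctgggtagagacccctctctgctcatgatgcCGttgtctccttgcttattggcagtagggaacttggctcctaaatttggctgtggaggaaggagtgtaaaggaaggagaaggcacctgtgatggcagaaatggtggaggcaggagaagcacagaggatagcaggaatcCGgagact
Hnrnpl: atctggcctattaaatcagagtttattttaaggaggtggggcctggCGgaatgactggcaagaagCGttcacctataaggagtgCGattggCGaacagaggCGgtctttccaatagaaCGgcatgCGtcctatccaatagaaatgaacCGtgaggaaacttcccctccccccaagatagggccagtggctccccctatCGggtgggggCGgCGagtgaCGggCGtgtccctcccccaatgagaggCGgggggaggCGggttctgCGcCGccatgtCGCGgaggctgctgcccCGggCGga
The low ratio of RBFOX3 was not typical of brain-elevated genes with a single window. NOVA2 had a ratio of 0.64 and NOVA1 of 0.76, and the ELAVL3 window (minus strand, chr9:22051974-22052273) has 29 CpG and a ratio of 0.92:
Elavl3: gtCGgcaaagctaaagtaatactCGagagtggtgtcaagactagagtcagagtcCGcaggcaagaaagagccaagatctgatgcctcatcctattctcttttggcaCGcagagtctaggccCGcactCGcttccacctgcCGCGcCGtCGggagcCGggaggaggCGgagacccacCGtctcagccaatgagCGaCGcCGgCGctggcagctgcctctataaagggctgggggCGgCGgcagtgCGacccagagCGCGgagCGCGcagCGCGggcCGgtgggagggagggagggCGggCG
Motifs were searched on both strands. The E-box letters CANNTG were in 84.0% of the 25 brain windows, 63.0% of all 127 and 72.3% of windows of all genes. CCAAT was in 64%, 48% and 37.4%, and TATAAA in 12%, 11.8% and 13.6%. The core of the RE1 element, the site of the neuronal gene repressor REST, were in none of the 127 windows and in 0.0517% of windows of all genes. Several windows belong to 1 gene and overlap, and a match is only a match of letters.

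Of 7 tested genes known as muscle or epithelial regulators (10 in the table), 4 were called higher and 1 lower in heart (all genes 6.41% and 17.4%), 3 higher and none lower in lung (11.9% and 3.64%), 2 higher and 1 lower in aorta (9.58% and 8.19%), 2 higher and 3 lower in spleen (11.5% and 13.5%), and none higher and 3 lower in brain (23.9% and 10.5%). RBPMS, a splicing regulator of smooth and heart muscle, had 351, 370 and 447 FPKM in aorta and 240, 203 and 190 in heart. It was higher in aorta by 2.64 ± 0.22 (limma adjusted p = 1.06e-08) and in heart by 1.64 ± 0.22 (adjusted p = 4.36e-06). Brain libraries had 4.27, 1.62 and 1.54 FPKM, the lowest of any tissue, with a difference of -5.23 ± 0.22.

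MBNL1, a muscleblind protein known for its capture by repeat RNA in myotonic dystrophy, was at 1522, 1756 and 1751 FPKM in aorta, above every other library (2.15 ± 0.08, limma adjusted p = 4.2e-14). Spleen followed with 1168, 1028 and 980 FPKM (1.39 ± 0.08, adjusted p = 1.99e-11) and lung with 750, 850 and 748. The lowest values were in brain, at 192, 210 and 175 FPKM (-1.41 ± 0.08). MBNL2 had another order, with lung highest (231, 257 and 246 FPKM) and spleen lowest (74, 70 and 44.8; -1.39 ± 0.14, adjusted p = 1.19e-07), so aorta and spleen, both high for MBNL1, parted for MBNL2.

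Smooth muscle markers (3 in the table) summed to 165.7 to 226 FPKM in aorta and at most 56.1 elsewhere. Fibroblast markers (6 in the table) summed to 186.6 to 230.2 FPKM in aorta and at most 61.4 elsewhere. The part of either list in the aorta values of RBPMS and MBNL1 was not tested. Without aorta replicates 1 and 3, the libraries with the most reads of mitochondrially encoded genes, 11 genes were called in aorta, 6 higher and 5 lower, against 14 with all 3; aorta is then a single library, assumed to vary like the other tissues.

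QKI, known from myelination and muscle, was highest in heart (322, 272 and 320 FPKM; 1.34 ± 0.13, limma adjusted p = 1.03e-07) and lung (312, 269 and 265; 1.22 ± 0.13, adjusted p = 8.7e-07), which did not differ by the pairwise call. Stomach was lower than each other tissue, at 50.5, 52.9 and 29.8 FPKM (-1.85 ± 0.13, adjusted p = 2.47e-09). With median-ratio scaling the lung difference of QKI was 0.97 and that of RBPMS 0.89, both under the minimum of 1. Lung is also the tissue whose libraries held cardiomyocyte markers, and their part in its QKI and RBPMS values was not tested.

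RBM24, a splicing regulator of heart and skeletal muscle, was at 5.63, 12.7 and 5.72 FPKM in heart and at 0 in 19 of the other 21 libraries. RBM24 is counted among the genes called higher in heart than in each other tissue (1.64% of all genes), with a difference of 2.95 ± 0.23 from their mean. Outside heart too few libraries reached 1 FPKM for the filter, so it passed only through heart and had to differ. It is described without a test. The 2 other libraries with reads were aorta replicates 2 and 3, at 1.33 and 2.07 FPKM. RBM38, its relative known from blood cells and the p53 response, had reads in heart (1.07, 4.23 and 2.17 FPKM) and spleen (0, 3.96 and 6.89); its heart call (1.37) was lost without heart replicate 2 (1.02) and its spleen call (1.44) without spleen replicate 2 (1.17) or 3 (0.83).

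ESRP1, which sets epithelial exon choice, had 93.6, 69.4 and 53.6 FPKM in stomach, 14.3, 7.15 and 19.0 in lung and 6.11, 5.54 and 6.57 in kidney. The 3 tissues were called higher, by 5.10 ± 0.27, 2.36 ± 0.27 and 1.29 ± 0.27 (limma adjusted p = 2.86e-11, 1.48e-06 and 0.000843). Every other library had at most 1.18 FPKM. The kidney difference was 0.30 and not called with a pseudocount of 5. ESRP2 had 5 reads in all. Of 7 epithelial markers 4 were in the table, with sums of 5.84 to 10.1 FPKM in stomach, 1.47 to 2.12 in lung and 0.702 to 2.21 in kidney; EPCAM was at 0 in all 3 tissues.

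**Figure D5:**
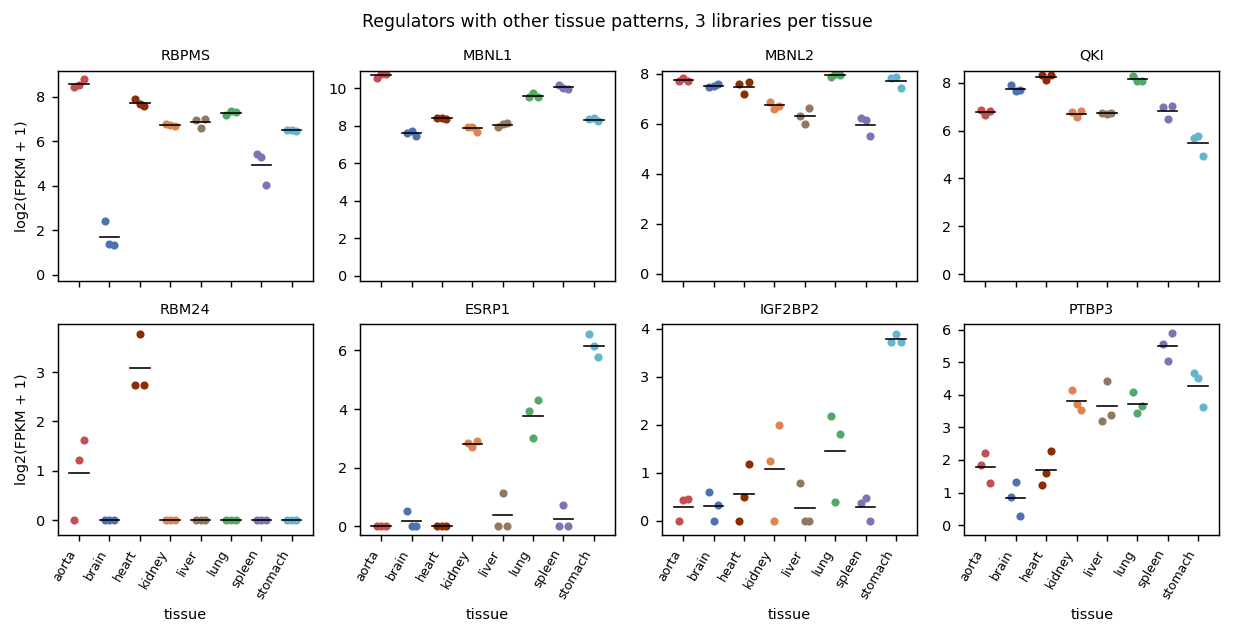
log2(FPKM + 1) of 8 regulators with other tissue patterns, in the 3 libraries of each tissue (points) with their mean (line); vertical scales differ between panels. RBPMS and MBNL1 are highest in aorta, QKI in heart and lung, RBM24 in heart, ESRP1 and IGF2BP2 in stomach and PTBP3 in spleen.

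IGF2BP2, which binds and stabilises growth-related mRNAs, was the stability regulator called in a tissue contrast, at 12.3, 13.9 and 12.2 FPKM in stomach and at most 3.56 elsewhere (3.18 ± 0.35, limma adjusted p = 8.79e-07). Stomach was called higher than each other tissue for IGF2BP2 and ESRP1, as for 1.2% of all genes. PUM2, a repressor of mRNAs with Pumilio elements, had no called tissue but passed the F test (adjusted p = 6.56e-06), with means from 51.8 FPKM in aorta to 121.4 in kidney.

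SR proteins and the TRA2 proteins bind exonic enhancers. Of 12 tested genes (13 in the table), 6 were called higher in spleen (SRSF1, SRSF3, SRSF7, SRSF9, SRSF10 and TRA2B) and none lower, where 11.5% of all genes were higher and 13.5% lower; the median difference was 0.96 against -0.14 for all genes. Values of SRSF1, SRSF7, SRSF10, SRSF11 and TRA2B are given because of what they showed, so these were chosen after their values were seen. SRSF7, which links splicing to mRNA export, had 682, 659 and 410 FPKM in spleen (1.47 ± 0.16, limma adjusted p = 2.59e-07), and SRSF9 had 76.3, 60.9 and 111 (1.39 ± 0.27, adjusted p = 0.000341). With TPM scaling 2 of the 12 were called (SRSF7 and SRSF9) and with median-ratio scaling 3 (these and SRSF3), with medians of 0.83 and 0.79.

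Without single libraries, SRSF1 (1.01) fell to 0.86 without spleen replicate 3, and SRSF3 in spleen (1.77) lost its call without spleen replicate 1 (1.76) or 2 (1.497). In heart 4 were called lower (SRSF3, SRSF9, SRSF10 and SRSF11; all genes 17.4%), and 1 (SRSF9) with median-ratio scaling. SRSF9 had 12.2, 4.82 and 4.95 FPKM in heart, below each other tissue (-2.50 ± 0.27, limma adjusted p = 3.55e-07). The heart call of SRSF10 (-1.01) was lost without any of 10 libraries and that of SRSF3 (-1.63) without heart replicate 2 (-1.12) or 3 (-1.38).

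TRA2A had its highest values in lung (376, 411 and 441 FPKM; 1.56 ± 0.14, limma adjusted p = 5.58e-08) and aorta (310, 326 and 409; 1.29 ± 0.14, adjusted p = 4.78e-07), and its lowest in liver (46.5, 43.4 and 48.1; -2.01 ± 0.14, adjusted p = 5.61e-10), which was below each other tissue. TRA2B had 372, 401 and 471 FPKM in spleen (1.11 ± 0.09, adjusted p = 1.22e-08) and was called in no other tissue. SRSF5, one of the 5 genes with the highest mean FPKM, ran from 710 FPKM in brain to 2821 in lung and was called in no tissue, though it passed the F test (adjusted p = 2.9e-08).

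Across the 8 tissue means all 66 pairs of the 12 SR and TRA2 genes correlated above 0, with a median r of 0.71. This was not particular to them, since all 78 pairs of other RBM genes were above 0 too (median 0.56). Pairs above 0 were 41 of 45 for spliceosome genes (median 0.49) and 218 of 276 for hnRNP and PCBP genes (0.47). They were 108 of 153 for ELAVL, NOVA, RBFOX, CELF, PTBP and KHDRBS genes (0.55) and 14 of 21 for muscle and epithelial genes (0.08). The median was 0.03 over all pairs of the 4260 genes. This is a description over 8 points that share libraries and their scaling.

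The hnRNP and PCBP genes were the largest group, 24 tested of 25. These proteins coat nascent transcripts. In spleen 7 were called higher and 1 lower (PCBP3), where 11.5% of all genes were higher and 13.5% lower, with TPM scaling 5 higher and with median-ratio scaling 6. HNRNPA1, HNRNPD and HNRNPM are given here, chosen after their values were seen. HNRNPA1, a classical silencer of exons, had 270, 332 and 359 FPKM in spleen (1.35 ± 0.11, limma adjusted p = 3.8e-09) and its lowest values in liver, 58.8, 50.9 and 63.4 (-1.45 ± 0.11, adjusted p = 9.68e-10). HNRNPD (AUF1), a decay factor for AU-rich mRNAs, had 1845, 1695 and 2350 FPKM in spleen (1.28 ± 0.12, adjusted p = 2.8e-08). HNRNPM had 877, 871 and 1137 FPKM (1.12 ± 0.09, adjusted p = 3.71e-09), and its call was lost without spleen replicate 3 (0.99).

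The higher calls of HNRNPA1L2 and HNRNPA1L3 in spleen are uncertain, since these are near copies of HNRNPA1 in the human annotation and can share its reads. HNRNPF, which binds G-runs, was lower in brain than in each other tissue, at 6.71, 8.597 and 6.57 FPKM (-2.79 ± 0.31, limma adjusted p = 1.19e-07). It was highest in spleen, at 73.3, 177 and 142 FPKM (1.68 ± 0.31, adjusted p = 0.000175), and lung, at 57.1, 157 and 109 (1.33 ± 0.31, adjusted p = 0.00223).

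PCBP3 and PCBP4 are poly(C)-binding proteins, relatives of PCBP1 and PCBP2. PCBP3 was at 87.01, 72.5 and 112 FPKM in brain, 45.8, 66.7 and 64.7 in kidney, 54.0, 47.7 and 55.2 in lung, and 0.656, 1.91 and 2.83 in liver. It was called higher in brain (2.75 ± 0.30, limma adjusted p = 8.63e-08), kidney (2.06 ± 0.30) and lung (1.88 ± 0.30), and lower in liver (-3.07 ± 0.30, adjusted p = 5.57e-08), heart and spleen. PCBP4 was at 13.1, 18.3 and 12.2 FPKM in brain (1.69 ± 0.29) and 1.18, 0 and 0 in stomach, below each other tissue (-2.38 ± 0.29).

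PCBP2, HNRNPA2B1, PCBP1 and HNRNPK had high FPKM in every library and no called tissue. PCBP2 ran from a mean of 2049 FPKM ± 222 (SD, n = 3) in brain to 4302 ± 192 in kidney, and HNRNPK from 812 ± 39.6 in heart to 2059 ± 161 in spleen. All 4 passed the F test, so even these changed between tissues by more than the spread of replicates. RBM4B, CELF1, HNRNPR and HNRNPL were among the genes with the smallest range of tissue means and at least 5 FPKM in every library, with ranges of 0.88 to 0.97. CELF1, HNRNPR and HNRNPL still had low limma F test adjusted p-values (0.000645, 7.17e-06 and 0.000715), and RBM4B did not (0.501).

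Of 10 tested spliceosome and exon junction genes (14 in the table), 6 were called higher in spleen (all genes 11.5%) and none lower. SF3A3 and U2AF1L4, counted among them, did not pass the F test across tissues (adjusted p = 0.0731 and 0.183). The U2AF and SF3 proteins recognise the 3′ splice site and branch point. The genes given here were chosen after their values were seen, apart from SF3A3 and SF3B6. SF3B1, the branch point subunit mutated in blood cancers, had 479, 393 and 395 FPKM in spleen and at most 354 in any other library; its difference of 1.01 ± 0.08 (limma adjusted p = 2.71e-09) fell to 0.91 without spleen replicate 1 and was also under 1 without heart replicate 3. U2AF2 had 37.3, 49.9 and 46.4 FPKM in spleen, all above the other 21 libraries (1.33 ± 0.29, adjusted p = 0.000865).

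SF3A1 had 3.38, 3.06 and 4.85 FPKM in spleen, few reads behind each (1.52 ± 0.39, limma adjusted p = 0.00378). SF3A3 had 12.4, 27.2 and 15.4 FPKM in spleen (1.69 ± 0.58), and lost its call without spleen replicate 2 (1.38) or 3 (1.77). U2AF1L4 (1.59) rested on spleen replicates 2 and 3, at 6.27 and 5.96 FPKM, and lost its call without either. With TPM or with median-ratio scaling 4 of these genes were called in spleen.

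SF3B6 was called higher in kidney on the strength of 18.5 FPKM in kidney replicate 1 against 4.79 and 4.42 in the others (1.94, and 1.34 without replicate 1, no longer called). SF3B5, another small subunit of the SF3B complex, was called in no tissue and uneven between replicates, at 3.49, 47.2 and 3.497 FPKM in aorta.

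Among 13 tested RBM genes of other kinds (18 in the table), 4 were higher in spleen (all genes 11.5%); those given here were chosen after their values were seen. RBM12 had 42.6, 34.0 and 37.6 FPKM there and at most 24.5 in any other library (1.48 ± 0.18, limma adjusted p = 1.21e-06). RBM14, RBM15 and RBM27 were called at 1.03, 1.11 and 1.08, and lost the call without spleen replicate 3 (0.93), spleen replicate 3 (0.77) and spleen replicate 1 (0.94). With median-ratio scaling RBM12 alone was called, and with TPM scaling RBM12 and RBM15.

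RBM14, a paraspeckle protein, was lower in heart than in each other tissue, at 25.1, 25.9 and 16.5 FPKM (-1.52 ± 0.14, limma adjusted p = 5.17e-08). RBM39, a U2AF-like coactivator, had 316, 254 and 272 FPKM in aorta and 274, 290 and 288 in lung, against 73.1, 94.4 and 67.5 in brain. It was called higher in lung (1.05 ± 0.17, adjusted p = 7.37e-05) and aorta (1.02) and lower in brain (-1.08); the aorta call was lost without aorta replicate 1 or any of 3 libraries of other tissues (as low as 0.94), and the brain call without brain replicate 3 (-0.98).

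Other genes of the splicing pathway, taken from lists chosen apart from the 106, were read the same way, with the genes named chosen after their values were seen. Of 26 tested snRNP and spliceosome core genes (40 in the table) 9 were higher and 1 lower in spleen, where 11.5% and 13.5% of all genes were, and none higher and 6 lower in heart, where 6.41% and 17.4% were. SNRPE, an Sm protein of the snRNP core, had 150.5 ± 51.5 FPKM in spleen (1.95 ± 0.30, limma adjusted p = 3.21e-05). Of 13 RNA helicases, 2 were higher in spleen and 4 lower in heart. Of 24 SR protein kinases and SR-related genes 2 were higher in spleen and 4 lower in heart, close to those shares of all genes.

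SRPK2, a kinase of SR proteins known from brain, was the kinase gene higher in brain, at 130.3 ± 13.6 FPKM against at most 39.9 in another tissue's mean (2.06 ± 0.20, limma adjusted p = 1.76e-08). Among 55 other RNA-binding genes 8 were higher and 8 lower in brain, where 23.9% and 10.5% of all genes were. MSI1 (Musashi-1), known from neural stem cells, had 19.2 ± 1.62 FPKM in brain against 0.990 in the next tissue (3.96 ± 0.20, adjusted p = 2.98e-13). A1CF, the cofactor of ApoB mRNA editing, had reads mainly in liver (15.6 ± 5.92 FPKM; 3.48 ± 0.17) and kidney (10.6 ± 0.532; 2.97 ± 0.17). SAMD4A, a translational repressor, was highest in aorta (57.2 ± 6.24; 3.37 ± 0.34).

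The 18 genes under the filter were CELF5, ESRP2, HNRNPUL2, IGF2BP3, MBNL3, PTBP1, RBM3, RBM8A, RBM18, RBM33, RBM38-AS1, RBM41, RBM43, RBM47, SF3B2, SF3B3, SRSF8 and U2AF1. They had 1 to 20 reads each over all 24 libraries and at most 3.85 FPKM in any. Several, such as U2AF1, SF3B2 and RBM8A, encode core factors that every cell uses, so a low value here cannot be read as lack of expression.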

How the data were processed

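Total RNA of 8 tissues was sequenced, 3 libraries each, 24 in all. Per the submitters' processing notes, reads were trimmed with fastp, aligned to the human build GRCh38.p13 with HISAT2 and counted with HTSeq; neither versions nor the annotation and strand setting were found in those notes. The values the authors deposited are FPKM, 1 column per library in a table of the whole series. Counts behind them were recovered as whole reads for 7493 of 7493 genes (100.0%) at a relative tolerance of 1e-06, giving 193900 to 642307 assigned reads per library; with so few reads, low genes are imprecise. Where a library is at 0, a floor of 3 reads was used, which covers counting error only.

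The test was limma-trend (limma 3.58.1, R 4.3.3) on log2(FPKM + 1), with 8 tissue means and genes of at least 1 FPKM in at least 3 libraries; a difference is on that scale and understates the change of low genes. Adjustment (Benjamini-Hochberg) ran over all tested genes; a call needed an adjusted p below 0.05 and a difference of 1 or more. Pairwise contrasts used the same limits. Ratios of paralogs were tested with exact two-sided permutation tests (scipy 1.17.1), adjusted over 8. Steps were tested on simulated data. Alternatives were other pseudocounts, filters and scalings, limma voom on recovered reads, a replicate block, no minimum difference, leaving out each library and leaving out aorta replicates 1 and 3. Named genes were all members of the CELF, MBNL, RBFOX, ELAVL, NOVA, PTBP, QKI, KHDRBS, ESRP, RBPMS and IGF2BP families, the 4 largest higher and 2 largest lower calls per tissue, the 5 highest means and the 5 smallest ranges; others are said to have been chosen after their values were seen. The genes and lists were chosen with earlier results of these data known. Of the 106 symbols, 103 matched a mouse symbol or synonym. Sequences are from RefSeq (GRCm38.p6 promoters) and GENCODE M21 transcripts. 1 gene of the set is not reported here, though it is included in the counts.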

Additional observations from a re-analysis of the deposited data

How the results depend on the processing

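No called difference of a named gene changed direction in any alternative, and of 120 such calls 49 fell under a limit in some setting other than leaving out 1 library: 37 with a pseudocount of 5, 12 with TPM scaling, 8 with median-ratio scaling, 9 with limma voom, 8 with a pseudocount of 0.1, 5 without the filter and 12 without aorta replicates 1 and 3. With a pseudocount of 5 the counts of called genes were 16 in heart, 7 in kidney, 6 in lung, 26 in spleen and 5 in stomach, with kidney split into 1 higher and 6 lower and lung into 6 and 0. Median-ratio scaling called 17 in heart. With no minimum difference, 45 were called in aorta, 48 in brain, 66 in heart, 32 in kidney, 51 in liver, 45 in lung, 69 in spleen and 28 in stomach, the cause being the dropped minimum. TPM scaling moved the median difference of all genes by 0.31 in brain, -0.22 in aorta and -0.15 in spleen. Leaving out 1 library at a time gave 13 to 16 calls in aorta, 22 to 24 in brain, 21 to 28 in heart, 11 to 13 in kidney, 18 to 21 in liver, 10 to 15 in lung, 31 to 40 in spleen, 9 to 12 in stomach and 70 to 78 genes by the F test; 26 of the 120 calls were lost in at least 1 such fit. The ratio of MBNL2 to MBNL1 then ran from 1.68 to 1.89. Replicate numbers were not taken as pairs, since the labels give them no meaning. Same-numbered libraries of different tissues correlated in their deviations at a mean r of 0.03 over 84 pairs (-0.06 to 0.13, 2 over 0.1). For different-numbered libraries the mean r was -0.02 over 168 pairs (-0.11 to 0.08, 0 over 0.1). Of 24 libraries, 20 correlated best with their own number, a hint of pairing from the data, not the design. With the replicate number as a block, 14 genes were called in aorta, 24 in brain, 26 in heart, 12 in kidney, 19 in liver, 12 in lung, 39 in spleen and 10 in stomach, with 75 by the F test, and 2 of the 120 calls were lost (CELF4 in spleen and SF3B6 in heart). Depth limits genes of few reads, such as those under 5 FPKM.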

Other observations

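Some genes had their lowest or highest value in libraries of 1 replicate number across tissues, which was looked for after the data were seen. Of 65 RNA-binding genes without ties between replicates in any tissue, 7 (10.8%) had 1 number lowest or highest in at least 7 of the 8 tissues, against 80 of 2093 tested genes (3.82%). HNRNPF was lowest in replicate 1 in 7 tissues, as were HNRNPA2B1 and U2AF2. HNRNPDL was highest in replicate 2 in 8 tissues and RBM6 highest in replicate 1 in 8. PUM2 was highest in replicate 1 in 7 tissues, and HNRNPR lowest in replicate 2 in 7. Endothelial markers (4 in the table) also had their lowest sum in replicate 2 in each of the 8 tissues. The cause was not tested.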
